A study of Mus musculus with 12 samples.

Results

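The 10 genes described here, Atf4, Atf5, Ddit3, Xbp1, Hspa5, Herpud1, Asns, Trib3, Chac1 and Sesn2, belong to the integrated stress response and the unfolded protein response. They were chosen by name, and all 10 were found by Ensembl identifier in both expression tables of the series, among 13178 genes in the AAV table and 21650 in the ribose table. The samples were dorsal root ganglion neurons of lumbar levels L4-6, whose axons run in the sciatic nerve, taken from C57BL/6J mice at 8 weeks of age and 72 h after a spinal cord injury. In the AAV experiment, mice had received an adeno-associated virus through the sciatic nerves for 4 weeks, which in the group AAV-GFP carried green fluorescent protein and in the group AAV-TKT transketolase, an enzyme of the pentose phosphate pathway. In the ribose experiment, mice were given 10% ribose, a sugar of the same pathway (Ribose), or vehicle alone (Vehicle). Each group held 3 libraries, all 4 groups were injured, and no uninjured group enters these comparisons. The sources used here give neither the serotype and promoter of the virus nor the route and duration of the ribose treatment. Nor is it stated whether replicates came from separate animals, so a p-value here measures the spread between these libraries, which may be technical.

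Cells that lack amino acids, hold unfolded protein in the endoplasmic reticulum (ER) or meet other stresses phosphorylate the initiation factor eIF2. Most translation then slows while that of the transcription factor ATF4 increases, and ATF4 switches on genes for amino acid supply and for recovery from the stress. In parallel, the ER sensors IRE1 and ATF6 raise chaperones and degradation factors, IRE1 by splicing the Xbp1 messenger RNA. In sensory neurons these pathways are known to be engaged after axon injury. Much of this control acts on translation, splicing or phosphorylation, which a gene-level RNA value does not read.

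Some of the regulatory sequence that these responses are known to use lies just upstream of the members. It is shown for the members with a match to the C/EBP-ATF core or the complete ER stress response element. For Ddit3 and Chac1, whose Ribose and Vehicle libraries did not overlap, the window is printed up to the GENCODE start. That gives 231 bases for Ddit3 and 237 for Chac1, of the 250 searched. Of all genes tested, 5.35% had every Ribose library below every Vehicle library, and 4.28% had every one above. Windows came from RefSeq (GRCm38.p6) for all 10 members and were searched on both strands over the 250 bases before each start site. The sequences below run in the direction of the gene, with capitals marking a match to either of these elements. The C/EBP-ATF core was searched as TGATGNAA, which reads TTGCATCA in capitals where the match is on the opposite strand. The other motif in capitals is the ER stress response element, a CCAAT box and a CCACG box with a fixed spacer.
Asns, minus strand, chr6:7693214-7693243: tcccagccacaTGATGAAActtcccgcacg
Herpud1, plus strand, chr8:94386306-94386335: accacggcgggTTGCATCAgcccgcacccc
Chac1, plus strand, chr2:119351038-119351067: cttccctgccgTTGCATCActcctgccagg
Hspa5, plus strand, chr2:34772020-34772049: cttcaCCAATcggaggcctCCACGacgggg
Chac1 upstream window, plus strand, chr2:119350992-119351228: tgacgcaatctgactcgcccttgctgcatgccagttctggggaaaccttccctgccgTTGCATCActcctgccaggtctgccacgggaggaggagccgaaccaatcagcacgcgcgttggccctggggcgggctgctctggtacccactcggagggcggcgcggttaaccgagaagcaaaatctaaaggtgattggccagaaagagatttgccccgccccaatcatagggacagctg
Ddit3 upstream window, plus strand, chr10:127290543-127290773: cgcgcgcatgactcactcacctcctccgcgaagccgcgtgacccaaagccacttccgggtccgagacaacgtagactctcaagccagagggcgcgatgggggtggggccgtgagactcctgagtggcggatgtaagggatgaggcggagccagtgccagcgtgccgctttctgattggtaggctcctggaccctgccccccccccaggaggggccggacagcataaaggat

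The C/EBP-ATF core was found upstream of 3 of 10 members, at 23 bases before the RefSeq start of Asns, 112 before that of Herpud1 and 193 before that of Chac1. It occurred in 3.45% of 32851 windows of the same length. The complete ER stress response element, in the form searched, was found upstream of Hspa5 alone among the members. It lay at 65 bases before the RefSeq start and occurred in 0.113% of windows. Other spacings and arrangements of its boxes were not searched, so other members may hold them. By the GENCODE starts, which lie farther upstream for both genes, the Hspa5 element and the Asns core fall inside the gene. Its CCACG box by itself, which overlaps the complete element, was found upstream of 7 members and in 28.3% of windows. The unfolded protein response core TGACGTGG (0.563% of windows) and the cyclic AMP response element TGACGTCA (1.55%) were found upstream of 0 members. These are matches of letters, and no binding was measured. Atf5 had a second RefSeq window, with 0 matches of any of these motifs.

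Levels are given as FPKM, the sequenced fragments of a gene per kilobase and library size. The targeted gene Tkt stood at 102.1 ± 4.18 FPKM in AAV-GFP and 248 ± 21.9 FPKM in AAV-TKT (SD, n = 3 each), a log2 change of 1.27 (limma adjusted p = 0.0054), as the labels state. Totals ran from 413635 to 456084 FPKM per library in the AAV table and from 510551 to 551370 in the ribose table. Read depth is unknown. Genes listed at 0 made up 5.76% to 11.0% of the Vehicle lists and 11.5% to 14.5% of the Ribose lists. All 6 sensory neuron markers (among them Avil, Prph and Pou4f1) were listed above 0 in every library, as were 5 satellite glia markers and 6 Schwann cell markers, so the samples held more than neurons. Replicate 2 stood apart in both ribose groups. The summed satellite glia markers were 1113, 624 and 1460 FPKM in Vehicle replicates 1, 2 and 3, and 900.2, 269.5 and 779 FPKM in Ribose replicates 1, 2 and 3. The summed sensory neuron markers were 1795, 2310 and 1710 FPKM in Vehicle and 1765, 2275 and 1675 FPKM in Ribose, in the same order. In the AAV experiment, replicate 2 also had the lowest satellite glia sums, 946 FPKM in AAV-GFP and 649 FPKM in AAV-TKT. Its sensory neuron sums there, 1911 and 2115 FPKM, were the highest of their groups.

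In the ganglia after injury, the members covered a wide range of levels, with Hspa5, Asns and Atf4 in that order at the top of all 4 groups. Hspa5, the main ER chaperone (BiP), was at 113 ± 8.39 FPKM in AAV-GFP and 96.3 ± 6.80 FPKM in Vehicle (SD, n = 3), above 95.5% and 93.9% of the genes tested in its table. Asns, asparagine synthetase, followed at 74.8 ± 4.44 and 88.9 ± 11.7 FPKM, and its libraries overlapped those of Hspa5 in Vehicle and Ribose but not in the AAV groups. Atf4, the effector of the integrated stress response, was the next, at 58.6 ± 2.72 FPKM in AAV-GFP and 66.5 ± 6.16 FPKM in Vehicle. These 3 genes were thus among the more abundant transcripts of the injured ganglia in treated and control libraries alike.

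Xbp1, the transcription factor of the IRE1 branch, Herpud1, an ER membrane protein of ER-associated degradation, and Atf5, a transcription factor related to Atf4, formed the middle. Their order differed between groups, with Herpud1 and Atf5 overlapping in the AAV groups and each of the 3 overlapping the next in Vehicle and Ribose. Ddit3, which encodes the stress transcription factor CHOP, came next, at 10.8 ± 0.788 FPKM in AAV-GFP and 12.5 ± 1.01 FPKM in Vehicle. Chac1, a glutathione-degrading enzyme, lay below it in every group, with 2.63 ± 0.321 and 4.15 ± 0.570 FPKM. Sesn2, a stress protein that restrains mTORC1, and Trib3, a pseudokinase that holds back ATF4, were lowest. In AAV-GFP they stood at 1.59 ± 0.0448 and 1.36 ± 0.144 FPKM, above only 7.01% and 4.61% of the genes tested, and they overlapped in the other 3 groups.

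**Figure D1:**
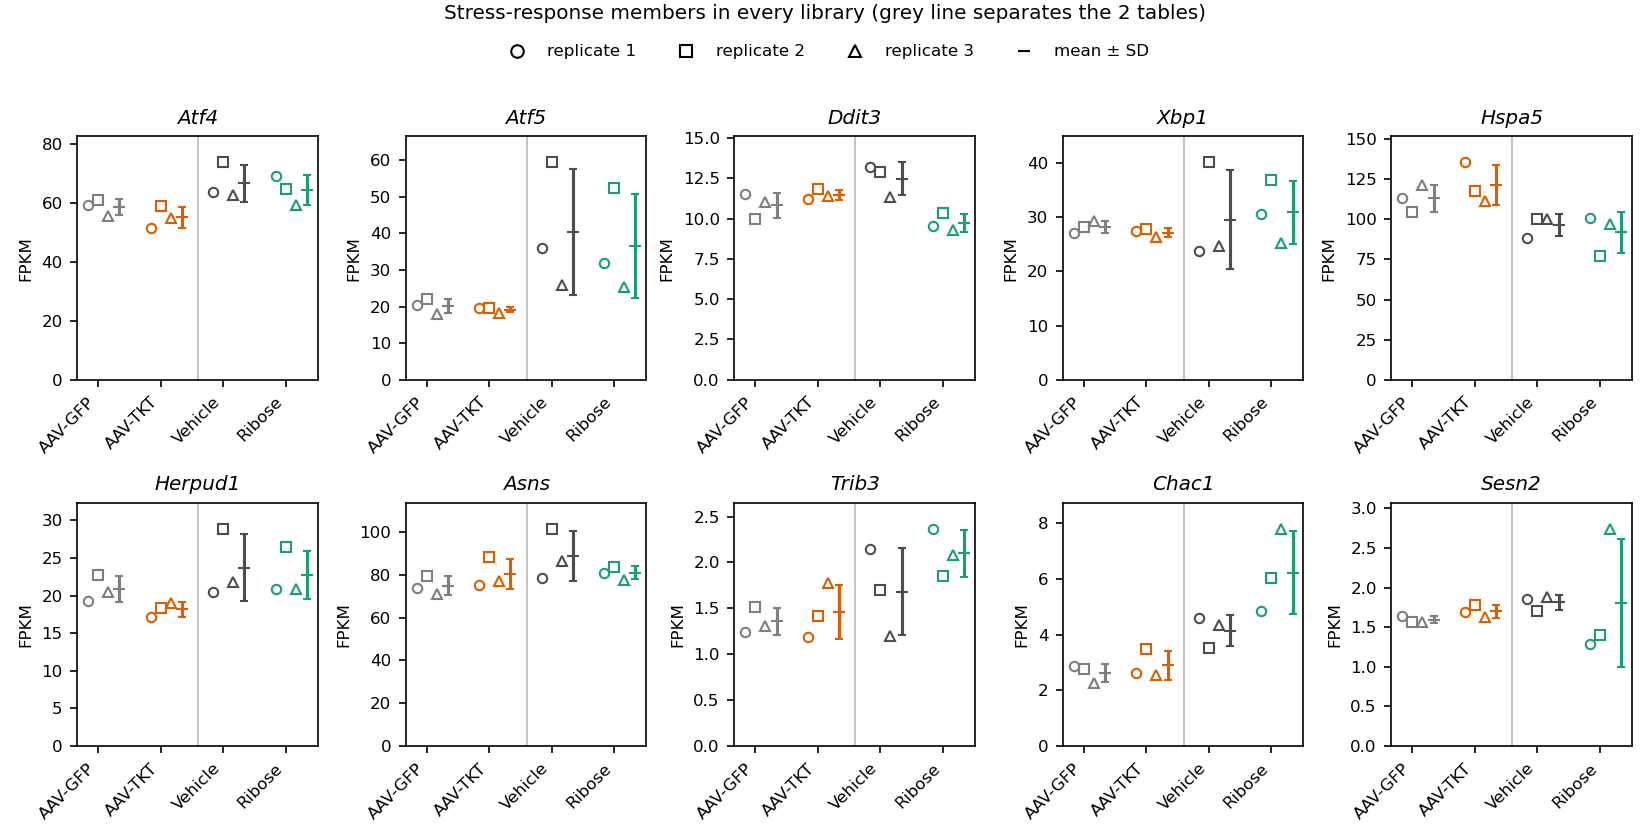
FPKM (vertical axes, starting at 0, a scale per gene) of the 10 members in the 12 libraries, by group, with circles, squares and triangles for replicates 1, 2 and 3 and the mean ± SD beside them. Treated and control libraries overlap in most panels, while Ddit3 is lower and Chac1 higher in all 3 Ribose libraries than in all 3 Vehicle libraries, and Herpud1 is lower in AAV-TKT.

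Raising transketolase was compared with the GFP virus over all 13178 genes on log2(FPKM + 1), a scale that understates differences of low genes. None of the 10 members passed limma's adjusted p of 0.05, and 0 of 10 had an unadjusted p below it, where 0.0152% and 10.6% of all genes did. The difference was positive for 6 members and negative for 4, with a median of 0.06 against 0.01 over all genes. Every interval stayed between -0.38 and 0.42, so larger differences on this scale lay outside the 95% confidence intervals of all 10 members. For the low members, such as Trib3 and Sesn2, this does not bound the difference in FPKM itself as closely. In bulk samples like these, fewer cells of a type and less RNA per cell cannot be told apart.

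Atf4 (ENSMUSG00000042406, chr15:80255184-80257541, plus strand, GRCm38) was at 59.3, 61.0 and 55.6 FPKM in AAV-GFP and at 51.4, 58.7 and 55.0 FPKM in AAV-TKT. The groups overlapped, and the log2 difference was -0.09 (SE 0.0741, 95% interval -0.26 to 0.08, limma adjusted p = 0.658). Ddit3 was at 11.5, 9.97 and 11.0 FPKM in AAV-GFP and at 11.2, 11.8 and 11.4 FPKM in AAV-TKT, with 2 AAV-TKT libraries inside the AAV-GFP range (log2 difference 0.08, SE 0.0786). Xbp1 stayed between 26.3 and 29.3 FPKM in all 6 libraries, with a log2 difference of -0.05. Atf5 was between 18.1 and 22.01 FPKM, with a log2 difference of -0.07. The libraries of the AAV groups overlapped for each of these 4 transcription factors.

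Herpud1 (ENSMUSG00000031770, chr8:94386438-94395377, plus strand, GRCm38) was the member whose AAV groups did not overlap. It was at 19.3, 22.7 and 20.5 FPKM in AAV-GFP and at 17.1, 18.4 and 19.0 FPKM in AAV-TKT. Every AAV-TKT library lay below every AAV-GFP library, by a narrow margin between 19.0 and 19.3 FPKM, as did those of 7.2% of all genes. The mean was 0.872 of that in AAV-GFP, and the log2 difference was -0.19 (SE 0.0829, 95% interval -0.38 to 0.00769, limma adjusted p = 0.479). An exact permutation test over the libraries gave p = 0.1, the smallest that 3 against 3 allows, and with weights per library the log2 difference was -0.10. Hspa5, the other ER protein, was at 113, 104.5 and 121 FPKM in AAV-GFP and at 135, 118 and 111 FPKM in AAV-TKT, which overlapped (log2 difference 0.10, SE 0.0954).

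The 4 stress targets had small positive differences in AAV-TKT, from 0.06 for Trib3 to 0.10 for Chac1, and their groups overlapped. Asns was at 73.8, 79.7 and 71.0 FPKM in AAV-GFP and at 75.3, 88.5 and 77.3 FPKM in AAV-TKT (log2 difference 0.10, SE 0.0847, limma adjusted p = 0.668). The sign turned to -0.00617 for Chac1 without AAV-TKT replicate 2 and to -0.04 for Trib3 without AAV-TKT replicate 3. No member had all AAV-TKT libraries above all AAV-GFP libraries, which 11.3% of all genes had.

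Summed markers of several cell types did not overlap between the AAV groups. The 8 neutrophil markers summed to between 95.3 and 257 FPKM in AAV-GFP and between 19.6 and 31.1 FPKM in AAV-TKT. The 5 red cell markers summed to between 113 and 471 FPKM and between 71.5 and 94.2 FPKM, and the 6 Schwann cell markers to between 418 and 443 FPKM and between 349 and 382 FPKM. The 5 pan-neuronal markers were higher in AAV-TKT, at 4228 to 4900 FPKM against 3622 to 4172 FPKM, as were the 6 sensory neuron markers, at 1918 to 2115 FPKM against 1736 to 1911 FPKM. The 5 of 10 macrophage markers listed summed to between 33.6 and 45.8 FPKM in AAV-GFP and between 12.3 and 18.3 FPKM in AAV-TKT. No listed marker of these lists was at 0. Their part in the values of Herpud1 and the other members was not tested.

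Ribose was compared with vehicle over the 13804 genes whose mean reached 1 FPKM, which kept all 10 members. None passed limma's adjusted p of 0.05 and 0 of 10 had an unadjusted p below it, against 0.00724% and 4.79% of all genes, and every member's adjusted p was 1. The difference was positive for 3 members and negative for 7, and the median was -0.05 against -0.02 over all genes. Over the settings, the members' median ran from -0.107 to 0.0598, with between 2 and 6 members positive. Ribose and Vehicle libraries did not overlap for Ddit3 and Chac1, in opposite directions. This was 1 of 10 members lower and 1 of 10 higher, against 5.35% and 4.28% of all genes.

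Ddit3 (ENSMUSG00000025408, chr10:127290774-127296288, plus strand, GRCm38) was at 13.2, 12.9 and 11.3 FPKM in Vehicle and at 9.51, 10.4 and 9.27 FPKM in Ribose. All Ribose libraries lay below all Vehicle libraries, as for 5.35% of all genes. The mean was 0.779 of that in Vehicle, and the log2 difference was -0.33 (SE 0.141, 95% interval -0.66 to 0.000442, limma adjusted p = 1). The exact permutation p was 0.1, again the smallest possible. Exons of Ddit3 share 68 of 1713 bases with Mars on the opposite strand, whose log2 difference was -0.06, and whether reads were counted by strand is not stated.

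Chac1 (ENSMUSG00000027313, chr2:119351229-119354381, plus strand, GRCm38) was at 4.59, 3.51 and 4.36 FPKM in Vehicle and at 4.87, 6.03 and 7.81 FPKM in Ribose. All Ribose libraries lay above all Vehicle libraries, as for 4.28% of all genes. The mean was 1.502-fold that of Vehicle, with a log2 difference of 0.48 (SE 0.217, 95% interval -0.03 to 0.98, limma adjusted p = 1) and an exact permutation p of 0.1. Over all alternative settings the value for Chac1 ran from 0.33 to 0.62 and that for Ddit3 from -0.39 to -0.29. Chac1 and Ddit3 are both known targets of ATF4, and Atf4 itself was at 63.5, 73.6 and 62.5 FPKM in Vehicle and at 69.0, 64.6 and 59.1 FPKM in Ribose. The Atf4 groups overlapped, with a log2 difference of -0.05 (SE 0.114, 95% interval -0.32 to 0.22).

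**Figure D2:**
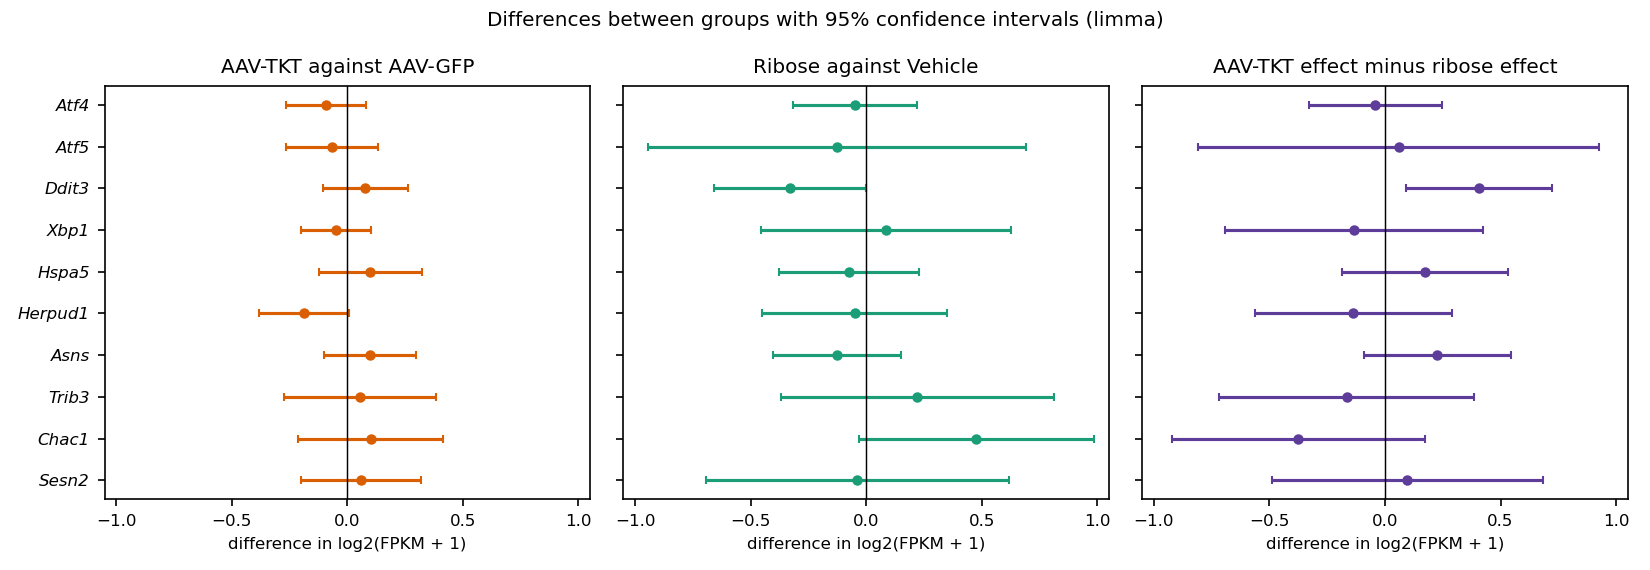
Difference in log2(FPKM + 1) of each member with its 95% confidence interval from limma, for AAV-TKT against AAV-GFP, Ribose against Vehicle, and the AAV-TKT effect minus the ribose effect. Intervals in the AAV panel are the narrower ones, and the interval of Ddit3 in the last panel, 0.09 to 0.72, is the 1 that leaves out 0.

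Asns was at 78.5, 101.6 and 86.6 FPKM in Vehicle and at 81.1, 83.9 and 77.9 FPKM in Ribose, with overlapping groups and a log2 difference of -0.13 (SE 0.119). Hspa5 was at 88.4, 100.01 and 100.4 FPKM in Vehicle and at 100.9, 77.3 and 97.4 FPKM in Ribose (log2 difference -0.07), and without Ribose replicate 2 the value was 0.04. Trib3 was at 2.14, 1.70 and 1.20 FPKM in Vehicle and at 2.37, 1.85 and 2.08 FPKM in Ribose (log2 difference 0.22, SE 0.251). All these groups overlapped. In Sesn2, Ribose replicate 3 stood at 2.74 FPKM and the other Ribose libraries at 1.29 and 1.40 FPKM, below all Vehicle libraries (1.70 to 1.89 FPKM), and the difference of -0.04 turned to 0.09 without Ribose replicate 1 and to 0.06 without Ribose replicate 2.

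Atf5, Xbp1 and Herpud1 were highest in replicate 2 of both ribose groups. Atf5 was at 36.0, 59.4 and 25.9 FPKM in Vehicle and at 31.8, 52.4 and 25.4 FPKM in Ribose. Its replicate 2 value was 1.92-fold the mean of the other 2 libraries in Vehicle and 1.83-fold in Ribose, while Ribose and Vehicle differed by -0.12 on the log2 scale (SE 0.349). Xbp1 was at 23.8, 40.1 and 24.8 FPKM in Vehicle and at 30.5, 37.0 and 25.3 FPKM in Ribose, with replicate 2 at 1.65-fold and 1.32-fold the others. Herpud1 was at 20.4, 28.9 and 21.9 FPKM in Vehicle and at 20.9, 26.5 and 20.9 FPKM in Ribose. Together with Asns, these genes had replicate 2 as the highest library in both groups, which 4 of 10 members and 21.4% of all genes showed. It was the lowest in both for 0 of 10 members and 19.3% of genes. In the AAV groups, replicate 2 was the highest in both for 3 of 10 members (Atf4, Atf5 and Asns) and 17.8% of genes. There it was the lowest in both for 0 of 10 members and 14.3% of genes.

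The same 2 libraries held the lowest value of their group for 5 of 5 satellite glia markers and 5 of 6 Schwann cell markers. They held the highest for 5 of 6 sensory neuron markers. The 5 pan-neuronal markers did not share this pattern, with 1 highest and 2 lowest in replicate 2 of both groups. Their sums were 4646, 4321 and 5068 FPKM in Vehicle replicates 1, 2 and 3, and 4280, 4615 and 4615 FPKM in those of Ribose. The 2 libraries differed in blood cell markers. Neutrophil markers summed to 164 FPKM in Vehicle replicate 2, the highest of its group, and to 11.2 FPKM in Ribose replicate 2, the lowest, and red cell markers to 209 and 14.4 FPKM in the same way. The part of that mix of cells in the values of Atf5, Xbp1 and Herpud1 was not tested. Standard deviations within the ribose groups on the log2 scale were 0.56 for Atf5 and 0.34 for Xbp1, larger than those of 86.3% and 65.6% of genes, against 0.09 for Ddit3 and 0.12 for Atf4, larger than those of 7.11% and 13.2%. The signs of 6 Ribose values turned when single libraries were left out, while those of Asns, Trib3, Chac1 and Ddit3 held in every setting. The value of Atf5 turned to 0.19 without Vehicle replicate 2 and to 0.10 without Ribose replicate 3, and that of Xbp1 from 0.09 to -0.04 without Vehicle replicate 1, -0.02 without Vehicle replicate 3 and -0.05 without Ribose replicate 2. Herpud1 turned from -0.05 to 0.09 without Vehicle replicate 2, and to 0.00442 and 0.00416 without Ribose replicates 1 and 3. Atf4 turned to 0.03 without Vehicle replicate 2 and to 0.009 without Ribose replicate 3. Without replicate 2 of both groups, 6 of 10 members were positive and the median was 0.02.

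**Figure D3:**
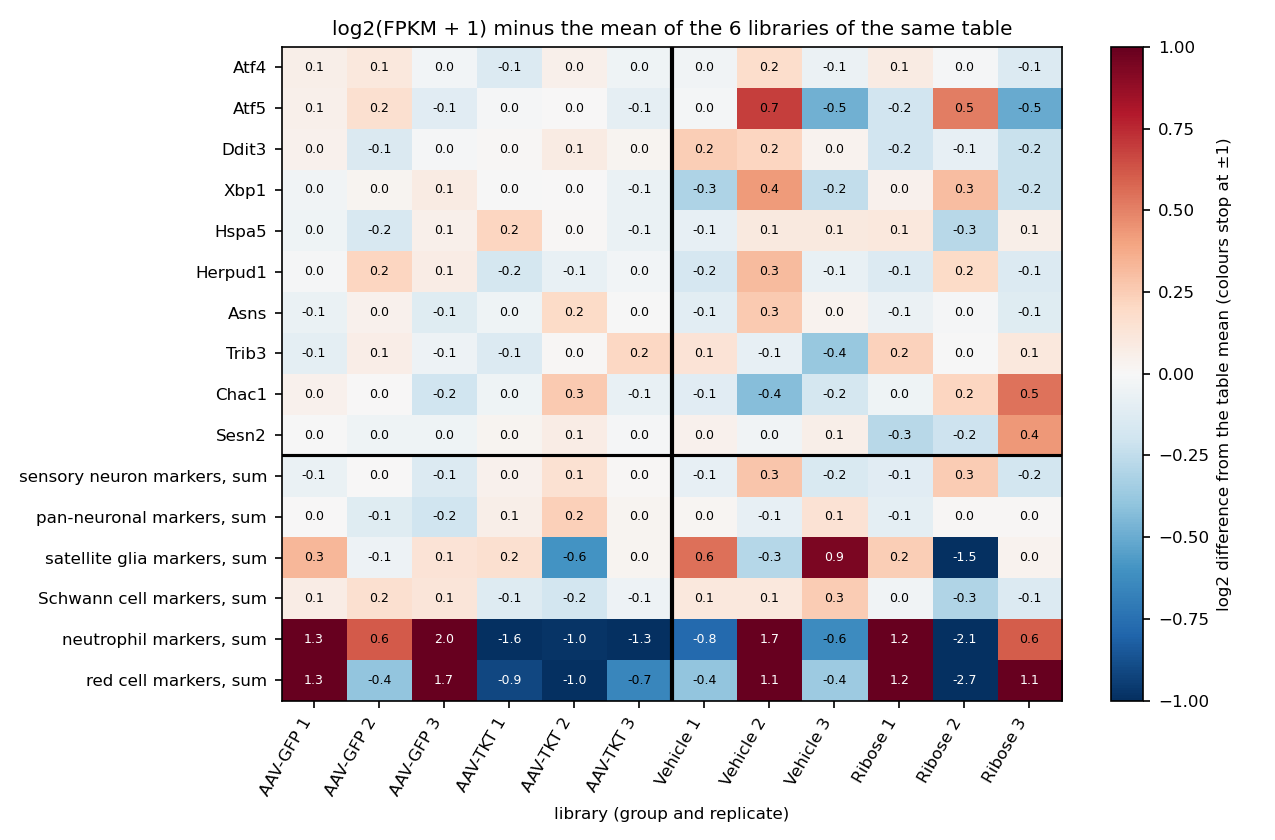
Each cell gives log2(FPKM + 1) of a member, or of the summed markers of a cell type, minus the mean of the 6 libraries of its table, for the 12 libraries in columns (red above, blue below, colours ending at 1 and -1). Atf5 and Xbp1 are highest in replicate 2 of Vehicle and of Ribose, the columns in which satellite glia markers are lowest for their group and sensory neuron markers highest.

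Marker levels also differed between Ribose and Vehicle. The 6 Schwann cell markers summed to between 544 and 604 FPKM in Vehicle and between 411 and 495 FPKM in Ribose, while neutrophil markers overlapped, at 28.9 to 164 FPKM and 11.2 to 116 FPKM. Up to 5 of 10 macrophage markers were listed at 0 in a Ribose library, and their sum did not exceed 36.3 FPKM in any library of this table. The part of these markers, and of the larger share of genes listed at 0 in Ribose, in the values of Ddit3 and Chac1 was not tested.

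Whether the treatments differed in their effect was tested as the AAV-TKT difference minus the ribose difference over the 12853 genes tested in both tables. No member passed limma's adjusted p of 0.05, where 0.00778% of all genes did, and 1 of 10 had an unadjusted p below it, where 6.85% of genes did. That member was Ddit3, with a value of 0.41 (SE 0.144, 95% interval 0.09 to 0.72, limma adjusted p = 0.680), made up of 0.08 in AAV-TKT and -0.33 in Ribose. For Chac1 the value was -0.38 (SE 0.251, 95% interval -0.92 to 0.17, limma adjusted p = 0.833). The other 8 members lay between -0.17 for Trib3 and 0.23 for Asns, with intervals that included 0.

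The members sit in a wider set of genes, taken here as 9 lists of the same responses. In AAV-TKT, 91 genes of these lists were tested and 0 passed limma's adjusted threshold, with 4 at an unadjusted p under 0.05 (10.6% of all genes), 49 positive and 42 negative values and a median of 0.01. In Ribose, 94 were tested and 0 passed, with 2 at an unadjusted p under 0.05 (4.79% of all genes), 22 positive and 72 negative values and a median of -0.09. Over all genes, 7083 of 13178 values were positive in AAV-TKT and 7618 of 13804 were negative in Ribose. All AAV-TKT libraries lay above all AAV-GFP libraries for 10 of the 91 genes and below for 3 (11.3% and 7.2% of all genes). All Ribose libraries lay above all Vehicle libraries for 1 of the 94 genes and below for 9 (4.28% and 5.35% of all genes). Genes named below are among those with the smallest unadjusted p of each sign in a list, not always the first, and their values are not calls. As they were picked by p, a lack of overlap in them is no separate support. The sign counts of several lists turned with scaling or with single libraries, and those counts are given beside them. The median of all genes in AAV-TKT moved with scaling too, from 0.0135 to -0.0478 with equal totals and -0.00837 with median-of-ratios scaling.

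Upstream of Atf4, the eIF2 kinases and phosphatases were positive for 2 of 6 genes in AAV-TKT (4 without AAV-TKT replicate 2 or replicate 3) and 1 of 6 in Ribose. Eif2ak1, the heme-regulated kinase, stood at 15.6 ± 0.236 FPKM in AAV-GFP and 17.2 ± 0.248 FPKM in AAV-TKT (log2 difference 0.14). Ppp1r15a, the stress-induced phosphatase subunit GADD34, stood at 16.9 ± 1.83 FPKM in Vehicle and 13.7 ± 3.40 FPKM in Ribose (log2 difference -0.30). Subunits of eIF2 and of its exchange factor eIF2B were positive for 6 of 9 genes in AAV-TKT and 3 of 9 in Ribose (6 without Vehicle replicate 1, 5 without Ribose replicate 2).

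Among partners and feedback factors of ATF4, 0 of 5 tested genes were positive in AAV-TKT and 4 of 6 in Ribose. The latter count was 2 without Vehicle replicate 1 or replicate 2, and 3 of 7 without Ribose replicate 1 or replicate 2. Atf3, a transcription factor induced in sensory neurons by axon injury, was at 17.2, 11.7 and 17.1 FPKM in AAV-GFP and at 12.4, 9.74 and 8.20 FPKM in AAV-TKT. These groups overlapped through AAV-GFP replicate 2 and AAV-TKT replicate 1, and the log2 difference was -0.55 (SE 0.183, limma adjusted p = 0.412). In the ribose experiment Atf3 was at 18.0, 9.54 and 21.8 FPKM in Vehicle and at 23.1, 10.7 and 19.7 FPKM in Ribose, lowest in replicate 2 of both groups. The difference between the effects on Atf3 was -0.67 (SE 0.446, limma adjusted p = 0.833).

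Downstream of Atf4, genes of amino acid synthesis and transport were positive for 7 of 12 in AAV-TKT and 6 of 14 in Ribose. With equal totals, median-of-ratios scaling or library weights, 4 of 12 were positive in AAV-TKT. Slc3a2, the heavy chain of several amino acid transporters, was at 49.8, 56.2 and 55.9 FPKM in Vehicle and at 46.8, 40.0 and 46.1 FPKM in Ribose. All Ribose libraries lay below all Vehicle libraries (log2 difference -0.28, SE 0.114, limma adjusted p = 1). Slc7a5, a light chain that pairs with it, stood at 16.4 ± 1.23 and 13.8 ± 1.16 FPKM, also without overlap. In AAV-TKT, Slc3a2 differed by -0.07, and the difference between the effects was 0.22 (SE 0.150, limma adjusted p = 0.841).

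The 12 cytoplasmic aminoacyl-tRNA synthetases, which charge tRNAs and include known ATF4 targets, were positive for 11 genes in AAV-TKT and negative for 11 genes in Ribose. The medians were 0.08 and -0.15. With library totals made equal, 7 of 12 were positive in AAV-TKT, with a median of 0.0123 against -0.0478 over all genes. Over the settings of the ribose comparison, 10 or 11 were negative. Nars, the asparaginyl enzyme, was at 134, 139 and 128 FPKM in AAV-GFP and at 160, 156 and 147 FPKM in AAV-TKT, without overlap (log2 difference 0.20, SE 0.0683, limma adjusted p = 0.412). Gars, the glycyl enzyme, was at 132, 135 and 137 FPKM in Vehicle and at 113, 123.1 and 119.7 FPKM in Ribose, without overlap (log2 difference -0.19, SE 0.0867, limma adjusted p = 1). The difference between the effects was 0.32 for Nars (limma adjusted p = 0.690) and 0.30 for Gars (limma adjusted p = 0.690), and neither passed.

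**Figure D4:**
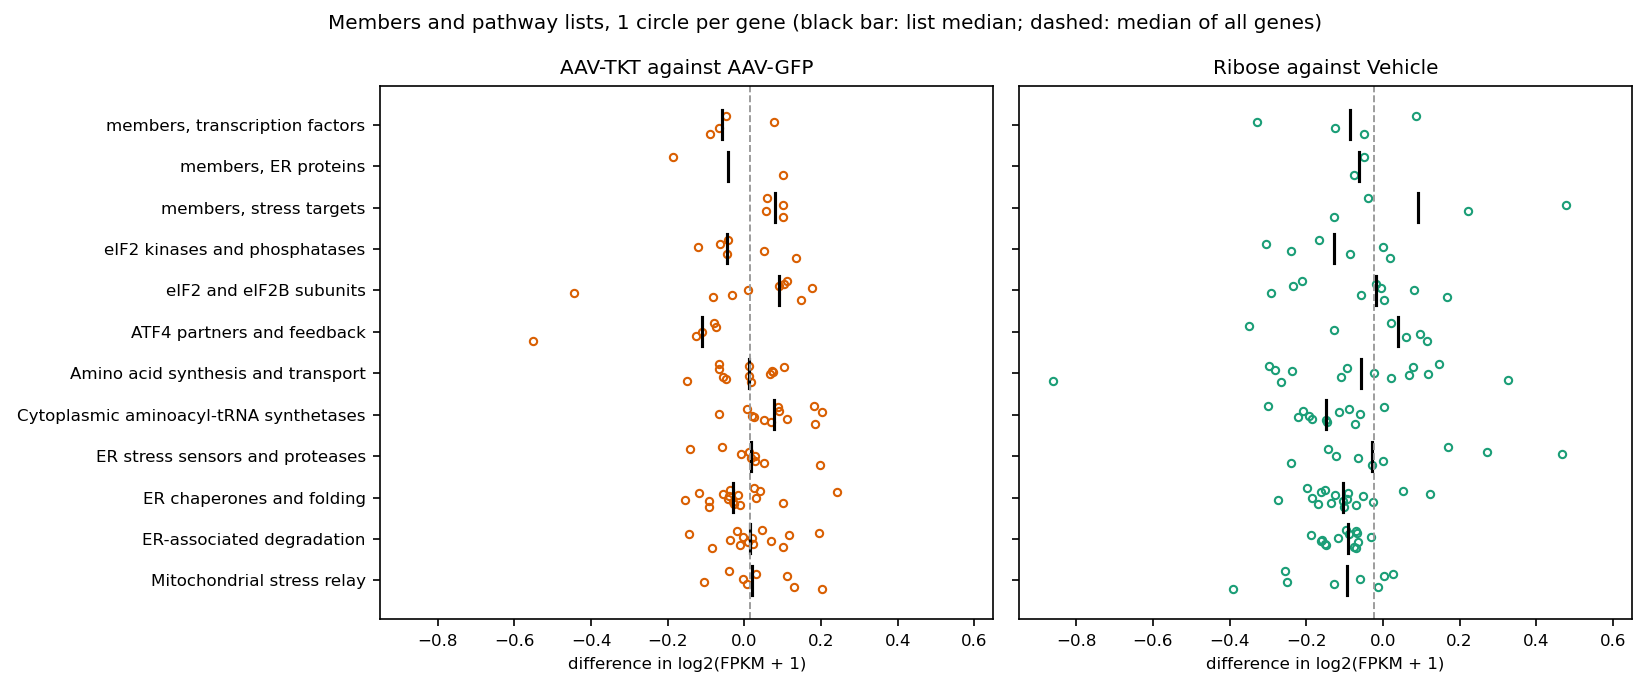
Difference in log2(FPKM + 1) of each gene (circles) of the members, split by role, and of 9 pathway lists, with the list median as a black bar and the median of all genes as a dashed line. In AAV-TKT the list medians lie between -0.11 and 0.09, and single values run from -0.55 (Atf3) to 0.24. In Ribose single values run from -0.86 to 0.48, and most of the synthetase, chaperone and ER-associated degradation values lie left of the dashed line.

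In the ER, the stress sensors and their proteases were positive for 6 of 9 genes in AAV-TKT and 3 of 9 in Ribose. In AAV-TKT, 1 of 9 was positive with equal totals and 4 of 9 with median-of-ratios scaling or without AAV-GFP replicate 3. In Ribose, 5 of 9 were positive with library weights and without Vehicle replicate 2, Vehicle replicate 3 or replicate 2 of both groups. Mbtps2, the site-2 protease that releases ATF6, was at 10.9, 9.13 and 10.9 FPKM in Vehicle and at 17.2, 11.7 and 15.3 FPKM in Ribose. All Ribose libraries lay above all Vehicle libraries (log2 difference 0.47, SE 0.178, limma adjusted p = 1). In AAV-TKT its groups overlapped, and the difference between the effects was -0.48 (SE 0.191, limma adjusted p = 0.690).

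Chaperones and folding factors, the group that works beside Hspa5, were negative for 12 of 17 genes in AAV-TKT and 15 of 17 in Ribose. In AAV-TKT, 7 of 17 were negative with library weights and without AAV-GFP replicate 2. Canx, calnexin, stood at 159 ± 10.5 FPKM in Vehicle and 141 ± 3.53 FPKM in Ribose, and Ppib, cyclophilin B, at 61.7 ± 3.22 and 53.6 ± 1.66 FPKM, both without overlap. Without replicate 2 of both ribose groups, 9 of 17 were negative. Genes of ER-associated degradation, the pathway that Herpud1 serves, were positive for 8 of 14 in AAV-TKT and negative for 14 of 14 in Ribose, with a Ribose median of -0.09. In AAV-TKT, 4 of 14 were positive with equal totals and 5 of 14 with median-of-ratios scaling or quantile normalization. Over the settings between 11 and 15 of them were negative in Ribose, the last with 15 tested. In AAV-TKT, Vcp, the ATPase that extracts proteins from the ER membrane, stood at 278 ± 14.8 FPKM in AAV-GFP and 319 ± 23.2 FPKM in AAV-TKT, without overlap (log2 difference 0.19, limma adjusted p = 0.472).

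Mitochondrial genes that relay stress to eIF2 or respond to it were positive for 5 of 8 genes in AAV-TKT (3 with equal totals or without AAV-TKT replicate 2) and 2 of 8 in Ribose. Dele1, which carries the mitochondrial signal to the kinase encoded by Eif2ak1, stood at 12.1 ± 0.210 FPKM in AAV-GFP and 13.4 ± 1.62 FPKM in AAV-TKT, without overlap. Oma1, the protease that cleaves its product, stood at 4.49 ± 0.900 FPKM in Vehicle and 3.17 ± 0.498 FPKM in Ribose, with overlapping libraries.

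Across the 12 libraries, with each gene centred on its mean in its table, the 5 genes most like Atf4 by Pearson's r among 11869 were Emc3, Dtnbp1, Cep170, AC098880.2 and Zswim3, at r from 0.893 to 0.935. Those most like Hspa5 were Taf11, Wtip, Rgp1, Eif3g and Tldc1, at r from 0.844 to 0.940. These are descriptions of the same libraries, which share cell mix and unknown depth, and carry no test.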

How the data were processed

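RNA of 12 dorsal root ganglion libraries, 3 per group, was described. Polyadenylated RNA was isolated with a micro column kit and made into directional libraries, per the labels' protocols. The tools bcl2fastq 2.20, FastQC and Trim Galore and the build GRCm38 were used, per the submitters' processing notes. The sources used here do not give the aligner, counter, strand setting or annotation release. The authors deposited FPKM in 1 table per experiment. The AAV table holds no gene with a mean under 1 FPKM, so levels were compared within tables only. Columns marked as controls in the ribose table were taken as Vehicle, the control named in the design. Whole reads could not be recovered from low values, so no count test was run.

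From these values, log2(FPKM + 1) was tested within each table for genes whose mean reached 1 FPKM, with limma 3.58.1 (R 4.3.3, intensity trend, Benjamini-Hochberg threshold 0.05), and the difference of the effects over both tables in a fit with 1 spread per gene. The scripts were tested on simulated data. Exact permutation tests were two-sided. Symbols and positions came from GENCODE M21. The members, lists and tests were chosen with earlier results of these data known. Genes named are the 10 members, per list and comparison genes among those with the smallest unadjusted p of each sign, and the 5 genes most like Atf4 and Hspa5. A gene that this rule names is not reported here. Alternatives were quantile normalization, median-of-ratios scaling, equal FPKM totals, a minimum mean of 5 FPKM or none, pseudocounts of 0.5 and 0.1, library weights, a robust prior, the replicate block, each library left out, and, added after seeing the data, replicate 2 of Vehicle and Ribose left out together.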

Additional observations from a re-analysis of the deposited data

How the results depend on the processing

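With limma, 0 members and 0 pathway genes passed the adjusted threshold under any alternative, with FPKM depth unknown and 3 libraries a group limiting what could be seen. The members' median in AAV-TKT moved from 0.057 to -0.048 with a minimum mean of 5 FPKM (which drops the low members), to 0.01 with equal totals (0.0136) and with library weights (0.0123), and ran from 0.0114 to 0.0463 with a library left out, lowest without AAV-TKT replicate 2. Over all genes the AAV-TKT median was 0.0135 in the main fit and 0.0338 with a minimum mean of 5 FPKM. It was -0.0478 with equal totals and 0.0177 with library weights. With equal totals the members' median and that of all genes thus both moved down. The cause was not tested. Of the members' values, 2 of 157 turned sign in AAV-TKT, 21 of 168 in Ribose and 12 of 227 for the difference of the effects. In Ribose, quantile normalization turned Hspa5 (0.000499) and Atf4 (0.00726), library weights turned Herpud1 (0.0126), Atf5 (0.00903) and Atf4 (0.00706), and leaving out replicate 2 of both groups turned Hspa5 (0.0725), Sesn2 (0.0291) and Atf4 (0.0202). For the difference of the effects, equal totals turned Atf5 (-0.0249), quantile normalization Trib3 (0.0599), and library weights Trib3 (0.0117) and Atf5 (-0.0857). With single libraries left out, AAV-TKT values ran from -0.00617 to 0.162 for Chac1 and from -0.0352 to 0.137 for Trib3. Ribose values ran from -0.0462 to 0.321 for Xbp1, -0.158 to 0.0942 for Herpud1, -0.411 to 0.188 for Atf5, -0.101 to 0.0253 for Atf4, -0.263 to 0.0914 for Sesn2 and -0.146 to 0.0441 for Hspa5. The difference of the effects ran from -0.254 to 0.345 for Atf5, -0.116 to 0.0106 for Atf4 and -0.0327 to 0.321 for Sesn2. Deviations from the group means, taken over genes, correlated between same-numbered libraries at 0.0326, 0.0707 and -0.0144 in the AAV table. In the ribose table these deviations correlated at 0.0418, 0.357 and 0.160, and between unlike-numbered libraries at -0.26 to 0.145. The values of replicates 2 and 3 there lay above those of every unlike-numbered pair. The main fits nevertheless took the numbers as names only, and the replicate block was run as an alternative. The log2 values themselves correlated between libraries at 0.972 to 0.985 in the AAV table and at 0.924 to 0.966 in the ribose table. With the replicate block, 0 members passed, and the genes passing over all went from 2 to 0 in AAV-TKT and stayed at 1 in Ribose. Not every library's deviations correlated best with those of the same number in the other group.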
